A study of Mus musculus with 6 samples.

Results

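The genes described here are 37 genes of motile cilia and of the multiciliated cells that carry them, picked by symbol from a table of 57180 gene rows. All 37 symbols were found in lung RNA from mice exposed to cigarette smoke. 3 libraries came from FTO-overexpressing lungs (genotype FTO_OE) and 3 from wild-type lungs (genotype WT), and both groups had the smoke exposure. FTO is an RNA demethylase that acts on N6-methyladenosine. The promoter driving the extra FTO, the mouse strain, the age and the length of exposure were not given in the sources used here. Nothing in the labels ties a library to a mouse of its own, so p-values measure the spread between these 6 samples. The comparison asked whether lungs overexpressing FTO held more or less RNA of ciliated airway cells than wild-type lungs under the same exposure. Levels are TMM-normalised counts scaled to library size (CPM).

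Motile cilia line the conducting airways and beat to move mucus and trapped particles out of the lung. Each is built on an axoneme, a ring of doublet microtubules around a central pair, whose outer and inner dynein arms slide the doublets against each other. Radial spokes and the central pair set the pattern of the beat. Multicilin (Mcidas) and cyclin O (Ccno) act early, when a cell makes many centrioles, and Foxj1 and the RFX factors then switch on the genes of the axoneme. Ciliated cells are a small part of a whole lung, so these transcripts also follow how much airway a piece of tissue holds.

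Libraries held 20306682, 16731850 and 21444907 counts in FTO_OE lungs and 18951310, 19389115 and 18044267 in WT lungs. Fto stood at 666.1, 650.1 and 740.8 CPM in the FTO_OE libraries, against 66.2, 69.9 and 68.6 CPM in the WT libraries, without overlap and in the direction of the labels. The 37 cilia genes took between 0.0994% and 0.141% of the counts of a library. Mcidas had only 2 to 6 counts in a library and did not pass the filter on low counts, which left 36 genes tested out of 16989. Defining markers of ciliated cells were well above that filter, with Foxj1 at 53.2 to 79.7 CPM.

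Motile cilia genes showed no difference between FTO_OE and WT lungs beyond the spread of the libraries. Summed over the 37 genes, the level was 1184, 1341 and 995 CPM in FTO_OE libraries and 1021, 1058 and 1271 CPM in WT libraries. The WT range lay inside the FTO_OE range, and the highest and the lowest library were both FTO_OE. Means were 1173 ± 173.3 CPM in FTO_OE and 1117 ± 134.8 CPM in WT lungs (SD, n = 3 each), a ratio of 1.05. In bulk tissue, fewer ciliated cells and less RNA per ciliated cell cannot be told apart.

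None of the 36 genes tested was called by edgeR's quasi-likelihood test. With an adjusted p under 0.05 as the threshold the count was 0 higher and 0 lower, where 0.0942% of all genes tested were called (0.0765% higher and 0.0177% lower). DESeq2 and limma-voom also called 0 of them, and gave 0 with an unadjusted p under 0.05. At an unadjusted edgeR p under 0.05 the count was again 0, against 9.44% of all genes (5.77% higher and 3.67% lower). Leaving out 1 library moved that last count to 2 lower without FTO_OE replicate 2, 3 higher without FTO_OE replicate 3 and 1 higher without WT replicate 3, and it was 0 without each of the other libraries. The adjusted p of the 36 genes lay between 0.661 and 0.999. Fold changes ran from 0.721 for Ccno to 1.22 for Spag16, and the other 35 lay at or above the 0.827 of Tekt2.

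The 95% interval of the fold change lay within 1.5-fold either way for 26 of the 36 genes, a share of 72.2%, where 59.0% of all genes tested, and 66.6% of the 14286 genes in the same range of mean CPM, met that bound. It lay within 2-fold either way for 35 of 36 genes, the exception being Ccno, whose interval reached down to 0.471, and 79.0% of all genes met that wider bound. On the upper side the farthest bound was 1.94-fold, for Cfap53. Fitted log2 fold changes were above 0 for 28 genes and below 0 for 8, with a median of 0.089 beside 0.007 for all genes tested and 51.5% of all genes above 0. Leaving out 1 library turned this: without FTO_OE replicate 2, 13 of 36 were above 0 and the median was -0.0209.

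**Figure D1:**
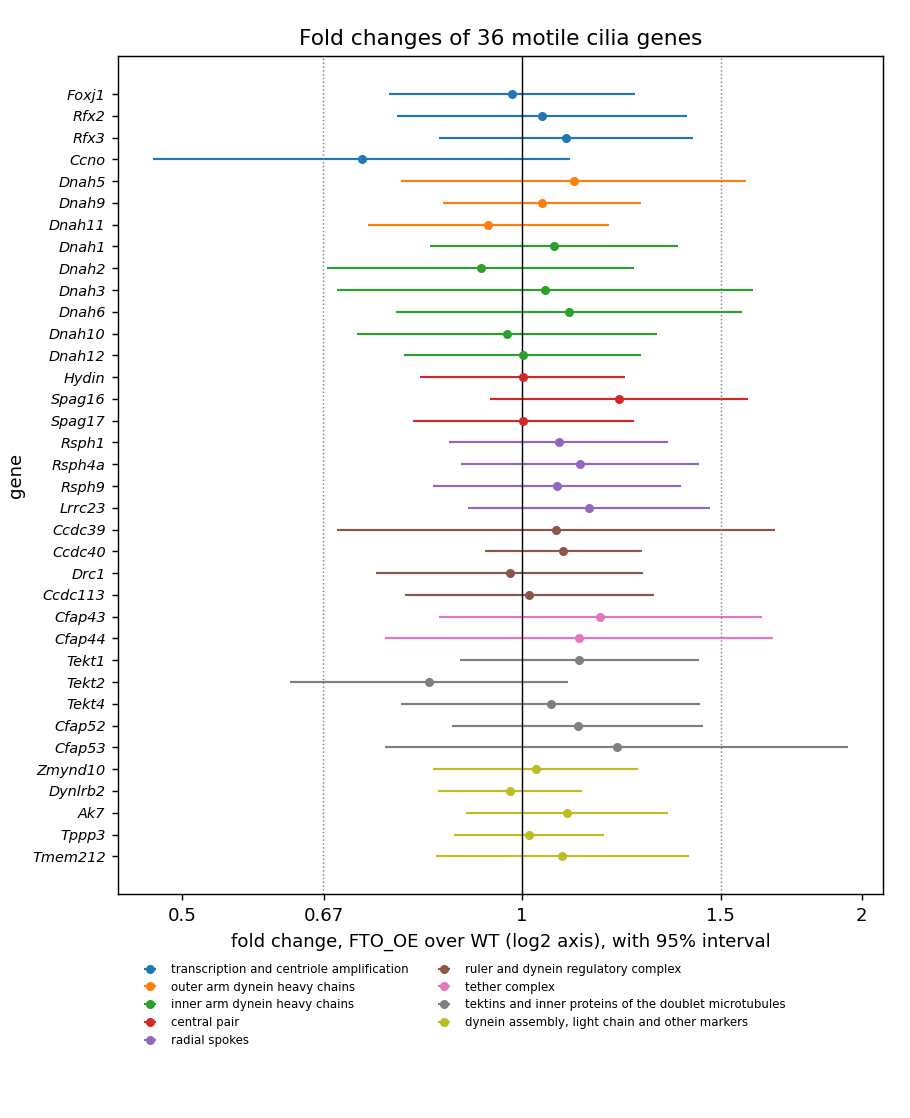
Fold change of each motile cilia gene tested, FTO_OE over WT, on a log2 axis, with its 95% interval from the edgeR fit and colours for roles in the cilium. Dotted lines mark 1.5-fold either way. All 36 intervals include 1, and 26 lie wholly between the dotted lines.

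Foxj1, the transcription factor that commands motile ciliogenesis, was at 75.4, 71.9 and 53.2 CPM in FTO_OE libraries and at 61.0, 63.9 and 79.7 CPM in WT libraries. The groups overlapped, with the lowest value in FTO_OE replicate 3 and the highest in WT replicate 3. Its fold change was 0.980 (95% interval 0.762 to 1.26). Rfx3, one of the RFX factors that bind promoters of cilia genes, was at 20.17, 26.15 and 20.15 CPM in FTO_OE libraries, against 23.63, 16.76 and 20.35 CPM in WT libraries. Again the groups overlapped, at a fold change of 1.09. Its relative Rfx2 averaged 10.02 ± 2.23 CPM in FTO_OE and 9.61 ± 0.702 CPM in WT lungs (SD, n = 3 each).

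Ccno, the cyclin-like gene needed for centriole amplification, had the lowest fold change of the list. It was at 1.12, 1.19 and 1.52 CPM in FTO_OE libraries, against 1.95, 1.63 and 1.76 CPM in WT libraries. These were 22, 21 and 33 counts in FTO_OE libraries and 36, 31 and 32 counts in WT libraries, the fewest of the 36 genes. The standard error of its log2 fold change was 0.264, with Cfap53 (0.293) and Ccdc39 (0.277) higher still. It was the only gene of the 36 whose groups did not overlap, all FTO_OE libraries being below all WT libraries, which 6.90% of all genes tested also showed. No cilia gene had all FTO_OE libraries above all WT libraries, against 7.96% of all genes. The fold change of Ccno was 0.721 (95% interval 0.471 to 1.10), with an edgeR p of 0.113 before and 0.661 after adjustment. Mcidas, the coactivator upstream of Ccno, averaged 0.205 ± 0.0883 CPM in FTO_OE and 0.199 ± 0.0850 CPM in WT lungs (SD, n = 3 each), with too few counts for a test.

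The RFX factors recognise the X-box, a palindrome of a pair of half-sites. Promoters were therefore read for these letters in RefSeq sequence (mouse, GRCm38.p6), from 250 bases before to 50 bases after each start, where 31 of the 37 genes matched with 34 promoters. The half-sites GTTGCCA and GTTGCTA were searched on both strands. At least 1 of them stood in 15 of 34 cilia promoters (44.1%) and in 7.63% of all 32851 promoters of the table. GTTGCCA was in 9 (26.5%, against 4.38% of all) and GTTGCTA in 10 (29.4%, against 3.66%). A whole X-box was searched as GTNNCC and GGNNAC with any 2 bases between, and was in 5 (14.7%, against 1.88%). By its letters this form can overlap GTTGCCA but not GTTGCTA, so an X-box spelled with GTTGCTA is not counted by it. A stricter form, GTTNCC and GGNAAC with any 2 bases between, was in 0 (0.451% of all). The forkhead motif TGTTTAC was in 2 (5.88%, against 3.65%) and CCAAT in 13 (38.2%, against 37.4%). These matches are a description of letters, not of bound sites, and 9 motif forms were searched in all. The remaining 3 were narrower spellings of the X-box, of which 2 were in 0 cilia promoters and 1 was in 1 (2.94%, against 0.250% of all).

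Of these, 6 stretches are shown to give a regulator, an outer arm dynein, a tektin, a tether protein, a central pair protein and a dynein light chain. Capitals mark the half-sites or the whole X-box, and the bases run 5′ to 3′ along the strand of the gene. That of Ccno is at chr13:112987562-112987621 on the plus strand, with its X-box from -219 to -206 before the start. That of Dnah5 is at chr15:28203641-28203700 on the plus strand and that of Tekt1 at chr11:72361883-72361942 on the minus strand. Shorter stretches are given for Cfap44 (chr16:44394759-44394788, plus strand), Hydin (chr8:110266944-110266973, plus strand) and Dynlrb2 (chr8:116504958-116504987, plus strand). In Cfap44 a GTTGCTA and a reversed GTTGCCA stand side by side.
Ccno: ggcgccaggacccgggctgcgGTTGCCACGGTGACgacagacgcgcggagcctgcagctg
Dnah5: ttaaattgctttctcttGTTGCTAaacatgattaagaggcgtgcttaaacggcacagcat
Tekt1: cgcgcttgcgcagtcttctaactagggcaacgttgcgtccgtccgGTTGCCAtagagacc
Cfap44: caggcggagggacGTTGCTATGGCAACcgc
Hydin: ccacactctgcggttgctgTGGCAACagat
Dynlrb2: tgcctggttgccTAGCAACgggggaagcgt

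Fold changes were also set beside the presence of a half-site. The median log2 fold change was 0.07 over the 14 tested genes with one (range -0.472 to 0.197) and 0.089 over the 16 without (range -0.273 to 0.286). Neither set held a called gene.

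Dynein heavy chains are the motors of the axoneme, each encoded by one of its longest transcripts. Dnah5, the outer arm heavy chain that is often mutated in human primary ciliary dyskinesia, was at 63.4, 77.3 and 50.5 CPM in FTO_OE libraries and at 41.3, 58.9 and 71.7 CPM in WT libraries. It was highest in FTO_OE replicate 2 and lowest in WT replicate 1, and its groups overlapped at a fold change of 1.11 (95% interval 0.781 to 1.58). Dnah9, the outer arm chain of the distal cilium, was at 31.2, 39.5 and 29.6 CPM in FTO_OE libraries, against 30.02, 31.57 and 34.54 CPM in WT libraries. FTO_OE replicate 2 was again highest. Dnah11, the proximal outer arm chain, averaged 23.7 ± 4.67 CPM in FTO_OE and 25.3 ± 2.63 CPM in WT lungs (SD, n = 3 each).

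Of the 6 inner arm heavy chains, 5 were highest in FTO_OE replicate 2, and Dnah2 in WT replicate 3. Dnah6 was at 67.9, 89.9 and 51.4 CPM in FTO_OE libraries and at 50.9, 62.1 and 77.0 CPM in WT libraries. Dnah3 was at 24.6, 46.1 and 22.7 CPM in FTO_OE libraries, against 28.7, 26.4 and 33.9 CPM in WT libraries. For Dnah3, FTO_OE replicate 2 stood above every other library and the remaining FTO_OE libraries below all WT libraries. Its fold change was 1.05 (95% interval 0.686 to 1.603), and without FTO_OE replicate 2 its log2 fold change was -0.325. Fold changes of Dnah1, Dnah2, Dnah10 and Dnah12 lay between 0.919 and 1.07. Summed over the 9 heavy chains, the level was 280.0, 377.4 and 241.3 CPM in FTO_OE libraries and 246.0, 278.7 and 334.9 CPM in WT libraries.

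Central pair genes hold the projections around the central microtubules. Hydin, a giant protein of that projection, was at 33.7, 37.6 and 32.2 CPM in FTO_OE libraries, against 28.6, 35.1 and 39.7 CPM in WT libraries, with a fold change of 1.00 (95% interval 0.812 to 1.23). Spag16 had the highest fold change of the list. It was at 29.3, 31.8 and 20.6 CPM in FTO_OE libraries and at 21.6, 21.2 and 24.2 CPM in WT libraries. FTO_OE replicates 1 and 2 were above all WT libraries and replicate 3 was below them, and the fold change of 1.22 (95% interval 0.938 to 1.58) had an edgeR adjusted p of 0.667. Spag17, which is part of the same structure, averaged 17.8 ± 2.60 CPM in FTO_OE and 17.8 ± 1.82 CPM in WT lungs (SD, n = 3 each).

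The 4 radial spoke genes had fold changes above 1, and 0 of them passed the test. Rsph1, a spoke head protein, was at 40.75, 35.93 and 29.28 CPM in FTO_OE libraries, against 30.45, 30.89 and 36.96 CPM in WT libraries. Rsph4a, another spoke head protein, was at 33.5, 35.3 and 31.3 CPM in FTO_OE libraries and at 26.6, 25.3 and 37.1 CPM in WT libraries. In both genes WT replicate 3 reached into or above the FTO_OE range. The fold changes were 1.08 for Rsph1, 1.125 for Rsph4a, 1.07 for Rsph9 and 1.146 for Lrrc23, a component of the third spoke.

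Genes that space and link the dynein arms also overlapped between groups. Ccdc39, which with Ccdc40 forms the ruler that sets the axonemal repeat, was at 21.6, 34.7 and 15.9 CPM in FTO_OE libraries and at 20.2, 19.6 and 27.4 CPM in WT libraries. It varied most of the 36 genes, with 2.19 times as much in the highest library as in the lowest, and both of these libraries were FTO_OE. Ccdc40 was steadier, at 29.8, 34.2 and 28.7 CPM in FTO_OE libraries, against 26.7, 28.2 and 30.25 CPM in WT libraries. Fold changes were 1.07 for Ccdc39 and 1.09 for Ccdc40. That of Drc1, of the nexin-dynein regulatory complex, was 0.9754, and that of Ccdc113 was 1.02.

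Cfap43 and Cfap44 form the tether that holds an inner dynein. Cfap43 was at 38.4, 53.6 and 29.7 CPM in FTO_OE libraries and at 32.6, 31.8 and 39.2 CPM in WT libraries. Cfap44 was at 28.05, 48.33 and 24.85 CPM in FTO_OE libraries, against 27.85, 27.16 and 34.93 CPM in WT libraries. Both genes stood out in FTO_OE replicate 2 and were lowest in FTO_OE replicate 3. Their fold changes were 1.17 and 1.12, and without FTO_OE replicate 2 the log2 fold changes were -0.021 and -0.18.

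Tektins and other proteins inside the doublets help to hold these microtubules together. Cfap52 was at 22.15, 21.55 and 16.46 CPM in FTO_OE libraries, against 16.15, 16.39 and 21.12 CPM in WT libraries. Tekt1 was at 17.7, 14.9 and 14.8 CPM in FTO_OE libraries and at 14.5, 11.6 and 16.1 CPM in WT libraries. FTO_OE replicate 1 was the highest library for Tekt1, Tekt4, Cfap52 and Cfap53, and WT replicate 3 for Tekt2. Cfap53, which is also needed for left-right patterning, was at 15.8, 11.9 and 7.70 CPM in FTO_OE libraries and 8.29, 8.04 and 12.9 CPM in WT libraries, a fold change of 1.21 with the highest upper bound of the list. Tekt2 had overlapping groups at a fold change of 0.827 (95% interval 0.623 to 1.10).

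Tppp3, a tubulin-binding protein abundant in ciliated cells and present in other cells too, was at 252.2, 263.7 and 231.3 CPM in FTO_OE libraries and at 230.8, 234.9 and 270.6 CPM in WT libraries. Its groups overlapped at a fold change of 1.01 (95% interval 0.871 to 1.18). Leaving it out of the sum gave 924.2 ± 157.1 CPM in FTO_OE and 871.2 ± 113.0 CPM in WT lungs (SD, n = 3 each), a ratio of 1.06. Ak7, an adenylate kinase of the axoneme, was at 45.2, 44.9 and 35.8 CPM in FTO_OE libraries, against 35.0, 36.03 and 43.9 CPM in WT libraries, a fold change of 1.10. Dynlrb2, a dynein light chain, had the tightest interval of the 36 genes, at a fold change of 0.976 (95% interval 0.843 to 1.13). Zmynd10, a factor that assembles dynein arms in the cytoplasm, was at 1.03 (95% interval 0.835 to 1.27). Tmem212, a membrane protein used as a marker of ciliated cells, had a fold change of 1.09.

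Per kilobase of transcript, the mean level over all 6 libraries was 177.1 CPM for Tppp3, 61.5 for Dynlrb2, 37.5 for Tmem212, 28.6 for Rsph1 and 25.7 for Foxj1. Heavy chains were far lower than these genes on this scale, between 0.836 CPM per kilobase for Dnah2 and 5.26 for Dnah6. Other members lay in that range too, among them Hydin at 2.19, Spag17 at 2.26 and Rfx3 at 2.32 CPM per kilobase. Ccno was at 0.815 and Mcidas at 0.0848 CPM per kilobase, so the early regulators were the least abundant of the list. Lengths were those of the longest coding transcript in GENCODE M21 (GRCm38), which covered all 37 genes and may differ from the annotation behind the table.

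**Figure D2:**
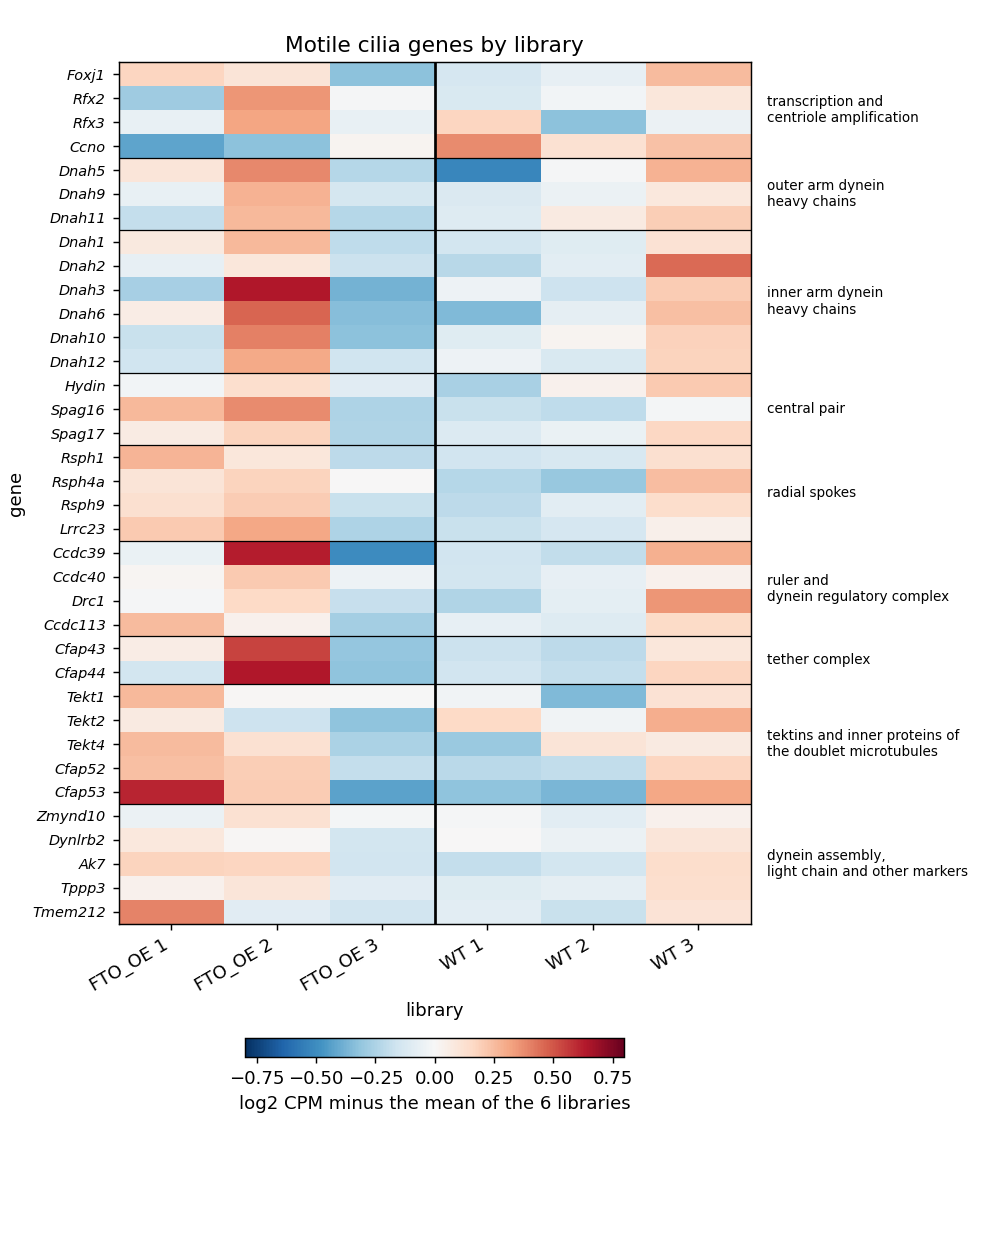
Level of each tested motile cilia gene in each library, as log2 CPM minus its mean over the 6 libraries, in rows grouped by role, with FTO_OE libraries left of the line and WT libraries right of it. FTO_OE replicate 2 and WT replicate 3 are mostly red, FTO_OE replicate 3 and WT replicates 1 and 2 mostly blue.

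The summed level was 1.35 times as high in the highest library as in the lowest, beside the ratio of 1.05 between group means. The median of the 36 genes, as log2 CPM relative to each gene's mean over the 6 libraries, was 0.062, 0.2 and -0.198 in FTO_OE libraries and -0.146, -0.086 and 0.157 in WT libraries. Over the 16895 tested genes with counts in all 6 libraries the same median lay between -0.005 and 0.01 in every library. FTO_OE replicate 2 was the highest library for 19 of the 36 genes, FTO_OE replicate 1 for 8 and WT replicate 3 for 8. FTO_OE replicate 3 was the lowest for 18 and WT replicate 1 for 11. Within a group the cilia genes varied more than most genes, with a median SD of log2 CPM of 0.223, against 0.159 over the 14286 genes in the same range of mean CPM.

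The order of FTO_OE libraries differed between long and short cilia transcripts. Of the 10 genes with a transcript of at least 10 kb, 8 were highest in FTO_OE replicate 2 and 0 in FTO_OE replicate 1. Of the 16 tested genes under 3 kb, 7 were highest in FTO_OE replicate 1 and 3 in FTO_OE replicate 2. Median deviations in FTO_OE replicates 1, 2 and 3 were -0.063, 0.291 and -0.217 for the long genes, and 0.192, 0.1 and -0.186 for the short genes (log2 scale). In WT replicates 1, 2 and 3 the medians were -0.132, -0.057 and 0.199 for the long genes and -0.114, -0.084 and 0.137 for the short genes.

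Across the 36 genes, Spearman's rho between length and deviation was -0.573, 0.608 and -0.134 in FTO_OE libraries and -0.228, 0.205 and 0.255 in WT libraries. Over 13971 other genes with a mean of at least 1 CPM, rho had the same sign in each library, at -0.242, 0.147 and -0.131 in FTO_OE libraries and -0.203, 0.175 and 0.215 in WT libraries. Genes of 1 library share its RNA and preparation and are not independent, so these are descriptions. The long cilia genes summed to 334.1 ± 72.9 CPM in FTO_OE and 321.0 ± 50.4 CPM in WT lungs, a ratio of 1.04, and those under 3 kb to 557.3 ± 59.2 CPM in FTO_OE and 542.5 ± 57.5 CPM in WT lungs (SD, n = 3 each), a ratio of 1.03. The part of length in the library order was not tested.

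**Figure D3:**
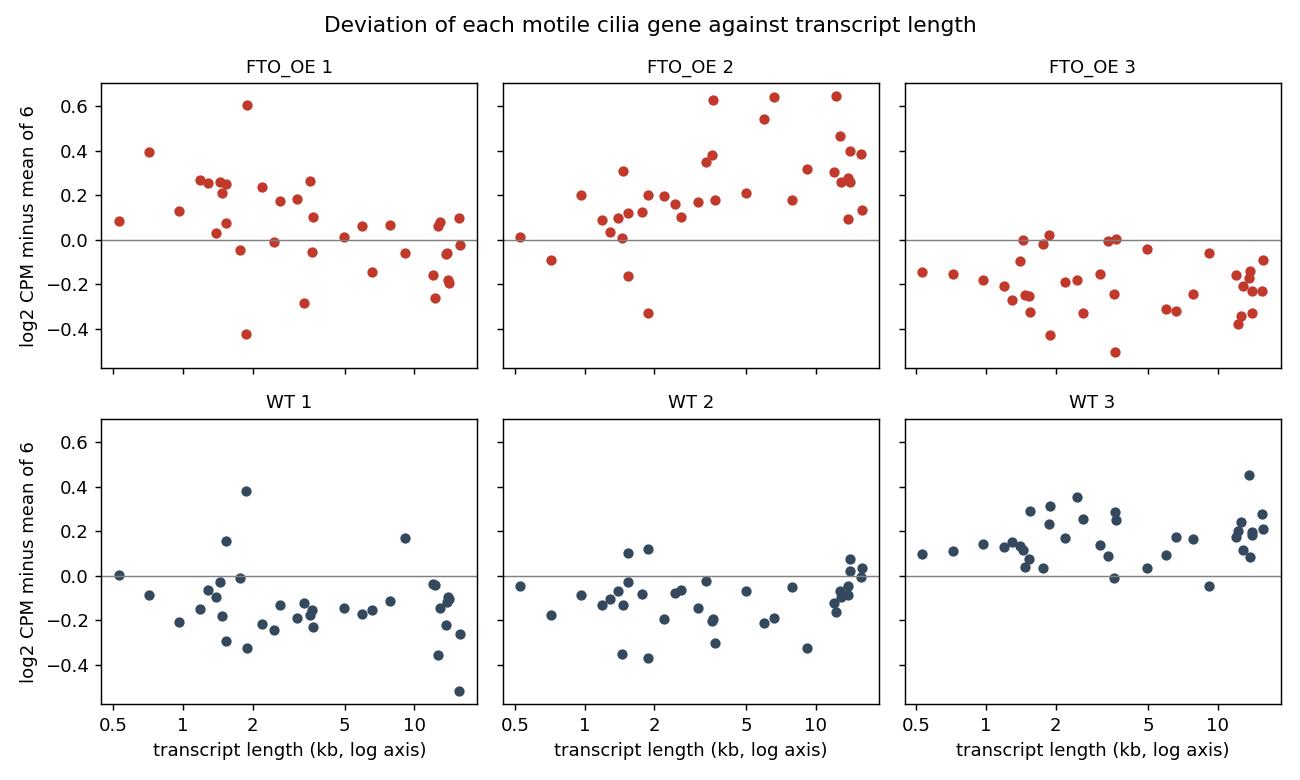
Deviation of each tested motile cilia gene from its mean over the 6 libraries (log2 CPM) against its transcript length in kb on a log axis, 1 panel a library, FTO_OE in the upper row. The points slope down in FTO_OE replicate 1 (rho -0.573) and up in FTO_OE replicate 2 (rho 0.608).

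A longer list of 61 other motile cilia genes, among them dynein intermediate chains, docking and assembly factors and further axonemal proteins, was measured beside them. Of 58 tested, 0 were called by edgeR, DESeq2 or limma-voom, 0 had an unadjusted edgeR p under 0.05, and the median log2 fold change was 0.058. Their median deviations were 0.118, 0.17 and -0.235 in FTO_OE libraries and -0.136, -0.1 and 0.156 in WT libraries, the same order of libraries as the 36 genes. A half-site was found in 28 of 52 promoters of these genes (53.8%). The most abundant was Sec14l3, a lipid-binding protein, at 1173 ± 63.2 CPM in FTO_OE and 1299 ± 114.3 CPM in WT lungs (SD, n = 3 each). With it the whole list summed to 2045 ± 151.3 CPM in FTO_OE and 2139 ± 174.8 CPM in WT lungs, a ratio of 0.956. Without it the list summed to 872.3 ± 119.8 CPM in FTO_OE and 840.3 ± 83.8 CPM in WT lungs (SD, n = 3 each), a ratio of 1.04. Fold changes were 1.05 for Ccdc153, 1.04 for Cfap298, 1.12 for Cfap65 and 1.03 for Cfap126. The lowest of the list was Dnal1, an outer arm light chain, at 0.854 (95% interval 0.708 to 1.03) and the highest Gmnc, the geminin-like regulator that starts multiciliogenesis, at 1.37 (95% interval 0.914 to 2.04). Dnah7a, Dnah7b and Dnah7c are near-identical copies whose reads the counting could have split.

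Genes of intraflagellar transport and the primary cilium, which most cell types use, varied less between libraries. Their sum was 849.0, 862.2 and 795.8 CPM in FTO_OE libraries and 829.7, 829.9 and 869.7 CPM in WT libraries, 1.09 times as much in the highest library as in the lowest, where the 37 motile cilia genes had 1.35 times. Of the 30 genes 0 were called by edgeR and 0 had an unadjusted p under 0.05.

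Club cell markers, of the secretory cells that lie beside ciliated cells, summed to 30520, 23540 and 26660 CPM in FTO_OE libraries, against 31330, 28890 and 36020 CPM in WT libraries. FTO_OE replicate 2, the highest library for cilia genes, was the lowest for this sum. Single markers differed: that library was the lowest for Cbr2 (2162 CPM) and the highest for Scgb3a1 (155.5 CPM). Most of that sum was Scgb1a1, the club cell secretory protein, at 24380, 18340 and 21610 CPM in FTO_OE libraries and 25910, 23820 and 30340 CPM in WT libraries, with a fold change of 0.803 (95% interval 0.564 to 1.145). The 9 markers did not move together: 4 log2 fold changes were above 0 and 5 below, with a median of -0.001, and 0 were called by edgeR. Scgb3a2, another secretoglobin, had a fold change of 1.41 (95% interval 1.034 to 1.925), with an edgeR p of 0.0343 before and 0.473 after adjustment, and Scgb3a1 one of 3.295 (95% interval 0.627 to 17.3). The ratio of cilia to club cell sums was 0.0388, 0.0570 and 0.0373 in FTO_OE libraries and 0.0326, 0.0366 and 0.0353 in WT libraries. By this ratio, whose denominator is mostly Scgb1a1, all FTO_OE libraries were above all WT libraries, replicate 3 only narrowly, which is a description with no test. Set against general epithelial genes, the cilia sum gave 1.492, 1.775 and 1.505 in FTO_OE libraries and 1.453, 1.429 and 1.521 in WT libraries, and the groups overlapped. Ratios to alveolar type 2, intraflagellar transport and other motile cilia genes overlapped as well, and those to T cell markers were lower in all FTO_OE libraries than in all WT libraries.

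Goblet cell markers, of the mucus-secreting airway cells, spread far wider between libraries. Their sum was 159.8, 321.9 and 56.0 CPM in FTO_OE libraries and 8.72, 17.3 and 71.6 CPM in WT libraries. In each group the library highest for goblet cell markers was also the highest for the cilia genes. Most of it came from Bpifb1 and Muc5b. Bpifb1, a secreted airway protein, was at 79.4, 183.7 and 17.7 CPM in FTO_OE libraries, against 0.379, 2.05 and 41.3 CPM in WT libraries. Muc5b, a gel-forming mucin of the airways, was at 69.3, 120.1 and 33.6 CPM in FTO_OE libraries and 5.69, 11.9 and 24.8 CPM in WT libraries. Of 6 goblet cell markers tested, 0 were called by edgeR. An unadjusted edgeR p under 0.05 was found for 4, all higher in FTO_OE lungs, against 5.77% of all genes tested. The ratio of group means was 5.51, and it ran from 3.32 without FTO_OE replicate 2 to 13.8 without WT replicate 3.

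Markers of the largest airways were scarce. Cartilage genes, 6 in all, summed to 0, 1.42 and 0.0922 CPM in FTO_OE libraries and 0, 0.210 and 0 CPM in WT libraries. The 5 basal cell markers summed to 1.83, 7.28 and 1.38 CPM in FTO_OE libraries and 1.19, 2.68 and 2.585 CPM in WT libraries. FTO_OE replicate 2 was highest by both sums, as it was for the cilia genes. Of the basal markers, Krt5, Krt15 and Trp63 were highest there. The keratin Krt5 was at 0, 1.02 and 0 CPM in FTO_OE libraries, against 0, 0 and 0.0550 CPM in WT libraries. Ngfr, the most abundant basal marker, was highest in WT replicate 2 (1.89 CPM), and Krt14 was at 0 CPM in FTO_OE replicate 2. Whether differences in the airway content of the tissue pieces set the library order was not tested. Smooth muscle genes were also highest in that library, at 427.3, 742.7 and 443.2 CPM in FTO_OE libraries and 483.1, 569.4 and 547.2 CPM in WT libraries.

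Immune cells also add RNA to a lung library. The 6 T cell markers summed to 203.4, 271.3 and 408.6 CPM in FTO_OE libraries and 93.4, 81.1 and 70.0 CPM in WT libraries, without overlap, and 2 of the 6, Cd8a and Lck, were called by edgeR with an adjusted p of 0.03. With edgeR both calls were kept under RLE scaling (adjusted p of 0.0296), library totals (0.0439) and a mean of at least 50 counts (0.0374). They were also kept with no filter on low counts (3.05e-05 for Cd8a and 3.66e-05 for Lck). Both calls were lost with a replicate block (adjusted p of 0.121), with limma-voom (0.081 for Cd8a and 0.0794 for Lck) and without FTO_OE replicate 2 (0.148 for Cd8a and 0.133 for Lck). They were also lost without WT replicate 1 (0.0543 for Cd8a and 0.0567 for Lck), 2 (0.155 for Cd8a and 0.172 for Lck) or 3 (0.159 for both), and that of Cd8a without FTO_OE replicate 3 (0.0646). The library with the most T cell RNA, FTO_OE replicate 3, held the least cilia RNA, and FTO_OE replicate 2, the next highest for T cell RNA, held the most. Alveolar type 2 markers summed to 19890 ± 1879 CPM in FTO_OE and 22740 ± 1517 CPM in WT lungs (SD, n = 3 each). All 8 of these markers had log2 fold changes below 0, and 0 were called by edgeR. In 6 of them all FTO_OE libraries were below all WT libraries, against 6.90% of all genes tested. An unadjusted edgeR p under 0.05 was found for 4, all lower in FTO_OE lungs, against 3.67% of all genes tested. General epithelial genes summed to 736.6 ± 68.1 CPM in FTO_OE and 759.6 ± 68.6 CPM in WT lungs (SD, n = 3 each). The part of these cell types in the cilia values was not tested.

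**Figure D4:**
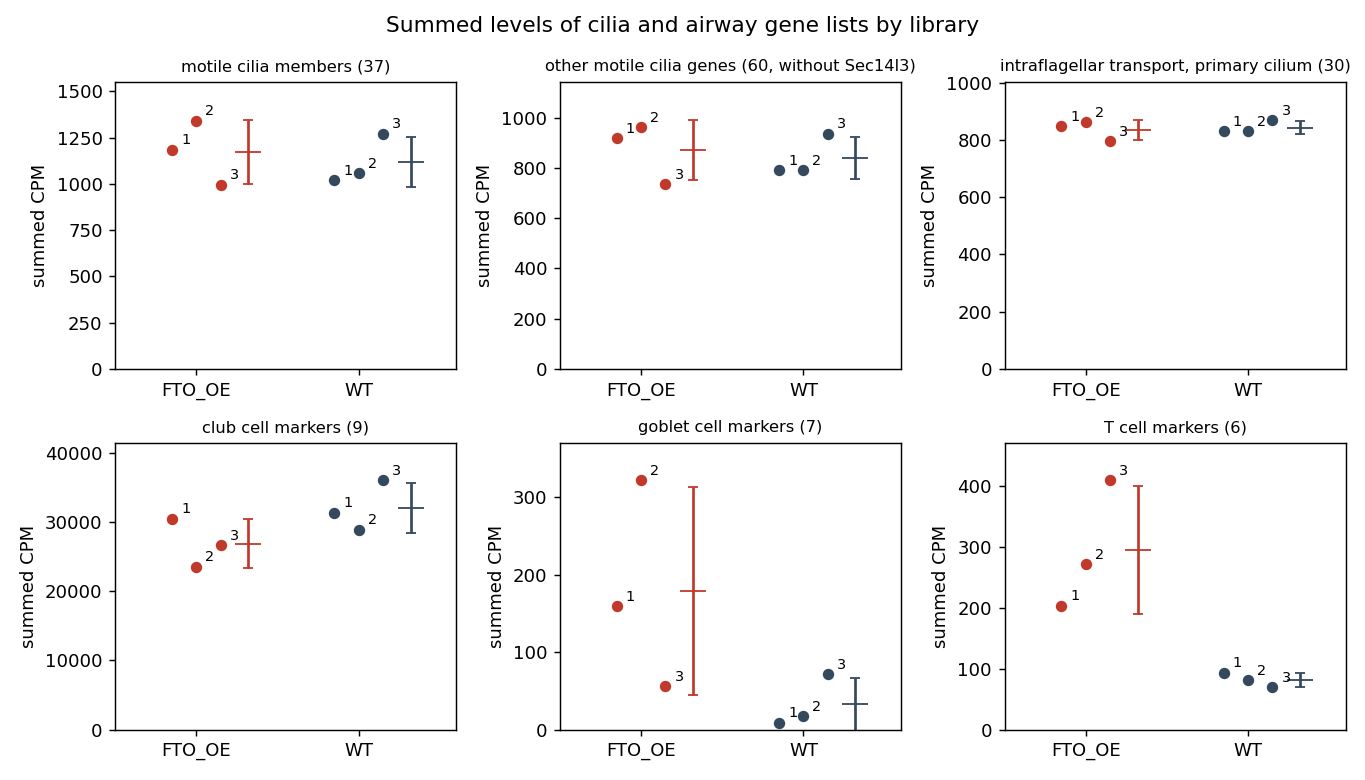
Summed CPM of 6 gene lists in each library, numbered by replicate, with the group mean and SD beside the points, FTO_OE left and WT right. Cilia genes overlap between the groups, at 1173 CPM on average in FTO_OE and 1117 CPM in WT libraries, and T cell markers do not. The lower end of the WT goblet bar falls below 0 and is not drawn.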

How the data were processed

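RNA of 6 lung samples was extracted with TRIzol and made into libraries with an Illumina stranded mRNA kit, per the labels' protocols. The submitters' processing notes name fastp, HISAT2 and StringTie without versions. The genome build, the annotation and strand use in counting were not given in the sources used here. The values the authors deposited are read as estimated counts per gene, because 9.66% to 10.3% of rows in a library were not whole. They are read as not scaled to library size, because library totals differed, from 16731850 to 21444907. They were rounded to whole numbers. Groups were compared by edgeR 4.0.16 (R 4.3.3; filterByExpr, TMM factors, quasi-likelihood test, no covariate), with Benjamini-Hochberg adjustment over 16989 genes. Rows with no gene symbol (525) took 0.119% to 0.143% of counts and were kept by their identifiers. Intervals and SE come from the fold change and its F statistic, and cover the spread between these libraries. The procedure was tested on simulated data. The members and lists were chosen with earlier results of these data known, so sums and medians over a list have no p-value. Cfap144 was matched by its older symbol, Fam183b, which the table uses. All 37 members could be named. In each role the 2 with the highest mean CPM are given by library, as are Ccno and Spag16, the extremes of the fold change. The 6 most abundant of the other motile cilia genes and up to 3 of each further list could be named. Dnal1, Gmnc, Krt5, Krt14, Scgb3a1, Scgb3a2, Cd8a, Lck, Cfap53 by library and the Dnah7 copies were picked with their values in view. Alternatives tried were RLE scaling, library totals, no filter, a mean of at least 50 counts, a replicate block, leaving out haemoglobin, immunoglobulin and mitochondrial genes, DESeq2 1.42.0, limma-voom (limma 3.58.1) and each library left out in turn.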

Additional observations from a re-analysis of the deposited data

How the results depend on the processing

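No motile cilia gene was called under any of the 14 alternatives, and 0 of the 61 further cilia genes. The count over all genes was less stable: 16 genes were called in all, 287 with no filter on low counts, 2 with a replicate block, 31 without haemoglobin, immunoglobulin and mitochondrial genes, 417 with DESeq2, 5 with limma-voom, and 1 to 49 without 1 library. With the replicate block the median cilia log2 fold change was 0.0653. Libraries with the same number did not deviate together (r of 0.108, -0.308 and -0.308), so the numbers were not taken as pairs. Of the 6 libraries, only WT replicate 1 correlated best with its own number in the other group.

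The ratio of summed cilia CPM ran from 0.976 to 1.13 without 1 library, and was 1.075 with library totals. The median log2 fold change of the cilia genes ran from -0.0209 to 0.2. Signs of values near 0 turned in 10 of 287 values under the other settings: Dnah12 to -0.003 (RLE), -0.01 (replicate block), -0.001 (blood, immunoglobulin and mitochondrial genes left out), -0.007 (DESeq2) and -0.018 (limma-voom), Hydin to -0.001 (RLE) and -0.005 (DESeq2), Spag17 to -0.003 (DESeq2) and -0.01 (limma-voom), and Dnah3 to -0.016 (limma-voom). Without 1 library, 24 genes turned sign at least once, none of them called. Their log2 fold changes ran from -0.128 to 0.11 for Foxj1, -0.121 to 0.196 for Rfx2, -0.005 to 0.259 for Rfx3, -0.033 to 0.345 for Dnah5, -0.076 to 0.139 for Dnah9, -0.017 to 0.209 for Dnah1, -0.247 to 0.107 for Dnah2 and -0.325 to 0.251 for Dnah3. They ran from -0.086 to 0.316 for Dnah6, -0.294 to 0.095 for Dnah10, -0.169 to 0.091 for Dnah12, -0.112 to 0.114 for Hydin, -0.086 to 0.117 for Spag17, -0.009 to 0.226 for Rsph1, -0.257 to 0.329 for Ccdc39 and -0.151 to 0.154 for Drc1. The last 8 ran from -0.112 to 0.148 for Ccdc113, -0.021 to 0.411 for Cfap43, -0.18 to 0.347 for Cfap44, -0.028 to 0.217 for Tekt4, -0.013 to 0.071 for Zmynd10, -0.087 to 0.027 for Dynlrb2, -0.021 to 0.097 for Tppp3 and -0.076 to 0.219 for Tmem212. No ratio of summed cartilage genes could be had without WT replicate 2, since the other WT libraries were at 0. With 3 libraries a group, the 95% interval, taken gene by gene, lay within 1.5-fold either way in 26 of 36 cilia genes. It reached beyond 1.5-fold in the other 10. Larger changes are not excluded by this.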

Other observations

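Neuroendocrine cell markers, a further rare airway type, were too low to follow. Their 4 genes summed to 1.93, 2.05 and 1.153 CPM in FTO_OE libraries, against 0.759, 1.31 and 3.41 CPM in WT libraries, and 0 of 3 tested were called. Mesothelial markers, of the lung surface, summed to 41.6, 40.5 and 33.3 CPM in FTO_OE libraries and 36.9, 93.0 and 69.9 CPM in WT libraries, an order unlike that of the cilia genes. Haemoglobin genes summed to 33720, 17260 and 3643 CPM in FTO_OE libraries and 23180, 15670 and 8500 CPM in WT libraries.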
